A study of Saccharomyces cerevisiae with 12 samples.

Results

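Expression of the glyoxylate cycle and gluconeogenesis genes of budding yeast was followed in 4 groups of RNA-seq samples. The genes were picked by name, with earlier results of these data known. They comprise ICL1 (YER065C), MLS1 (YNL117W), DAL7 (YIR031C), MDH2 (YOL126C), MDH3 (YDL078C), CIT2 (YCR005C), PCK1 (YKR097W), FBP1 (YLR377C), IDP2 (YLR174W) and SFC1 (YJR095W), which are 10 of the 6825 genes and other features listed. All 10 were found by their systematic names and had values above 0 in all 12 samples. The samples come from a study of EUC1 (YMR111C), a gene for a DNA-binding protein, and ask how its deletion and its overexpression alter transcription. WT cells (DF5a YIplac211-MED11::URA3) and euc1∆ cells (DF5a YIplac211-MED11::URA3 ymr111c::natNT2) were grown in YP with glucose to mid-log phase, so both carried an extra integrated copy of MED11. Control cells (W303a RAD5 with ymr111c::natNT2 and YIplac211-pEUC1-EUC1::URA3) and pGAL-EUC1 cells (W303a RAD5 with ymr111c::natNT2 and YIplac211-pGAL-EUC1::URA3) were grown in YP with raffinose and then given 2% galactose for 3 h. Both of these lack EUC1 at its own locus and carry it on an integrated plasmid, under its own promoter in the control and under the galactose-inducible GAL promoter in pGAL-EUC1. Each group is 1 strain with 3 samples, which the series describes as biological triplicates. No strain set with a single difference connects the glucose and the galactose experiment, because medium, strain background, the EUC1 locus and the MED11 plasmid change together.

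The glyoxylate cycle lets yeast build sugars and amino acids from acetate or ethanol. Isocitrate lyase and malate synthase bypass the steps of the tricarboxylic acid (TCA) cycle in which carbon is lost as CO2, and gluconeogenesis then turns oxaloacetate back into sugar phosphates. Glucose represses most of these genes, and their enzymes are dispensable as long as glucose is present. Raffinose, which is cleaved by invertase, and galactose are sugars that repress them less strongly. When glucose returns, several of the enzymes are marked for degradation by the GID ubiquitin ligase.

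**Figure D1:**
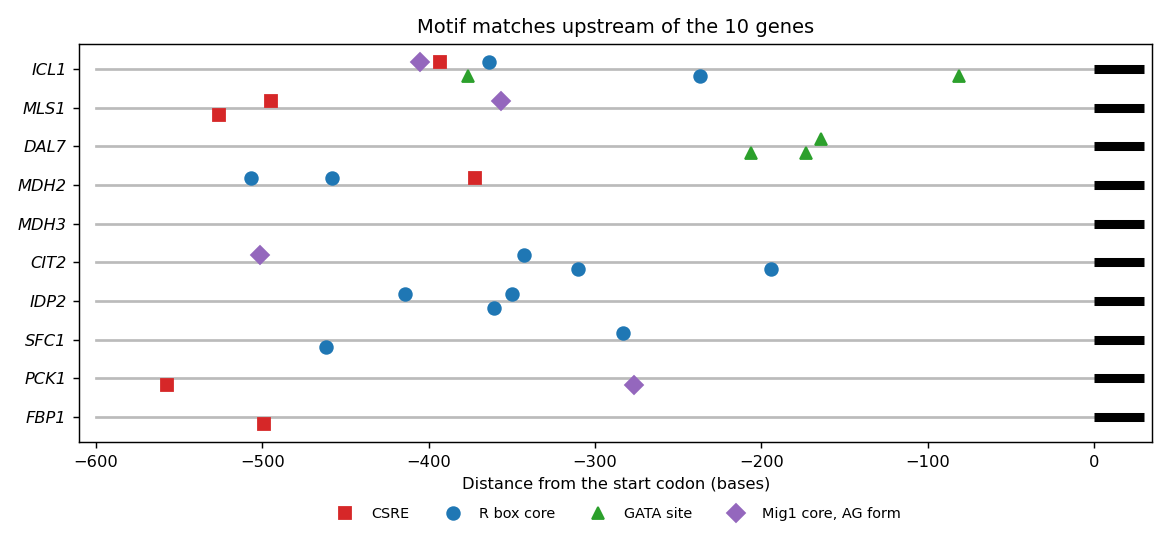
Matches to 5 short motifs in the 600 bases before the start codon of each of the 10 genes, plotted by distance from the start codon in bases, with matches on the gene's own strand above the line and those on the other strand below it. Of the motifs CCCCGC has no match and is not drawn. A match to the carbon source response element lies upstream of ICL1, MLS1, MDH2, PCK1 and FBP1, and MDH3 has no match to any of the motifs.

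The regions before the start codons were searched because known regulators of the pathway bind there. Cat8 and Sip4, activators that work when glucose is absent, bind the carbon source response element (CSRE). On both strands of the 600 bases upstream of the start codon, the CSRE consensus matched in 5 of the 10 genes, compared with 0.533% of 5999 protein-coding genes (32 genes). The motif was picked because it is known from this pathway. The matches thus describe the genes and are no independent support for their regulation. The following stretches (R64 genome, RefSeq sequence, gene strand, 5′ to 3′) show these matches in capitals, with 10 bases on either side, because they are what 5 of the genes share. MLS1 has a pair of matches in opposite orientation.
ICL1 (chrV:287292-287322, minus strand): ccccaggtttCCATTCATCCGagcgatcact
MLS1 (chrXIV:405817-405878, plus strand): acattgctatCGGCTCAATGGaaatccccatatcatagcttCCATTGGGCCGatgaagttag
MDH2 (chrXV:83277-83307, minus strand): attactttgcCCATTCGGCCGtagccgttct
PCK1 (chrXI:630580-630610, plus strand): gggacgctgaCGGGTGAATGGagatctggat
FBP1 (chrXII:875276-875306, minus strand): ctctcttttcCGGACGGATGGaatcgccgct

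The other motifs were found both in genes with a CSRE match and in genes without one. GTCAC, the R box bound by the retrograde regulators Rtg1 and Rtg3, occurred upstream of ICL1, MDH2, CIT2, IDP2 and SFC1, that is in 5 of 10, while 49.2% of all genes have it in a window of this length. GATAAG, the site of the GATA factors that control nitrogen catabolism, occurred upstream of ICL1 and DAL7 (26.8% of all genes). CCCCAG, a core of the site of the glucose repressor Mig1, occurred in 4 of 10 (ICL1, MLS1, CIT2 and PCK1, 9.43% of all genes). CCCCGC, also a form of this core, occurred in 0 of 10 (6.78%). Other forms of the Mig1 core were not searched. CIT2 and IDP2 had 3 GTCAC matches each, and DAL7 had 3 GATAAG matches. How many of all genes have as many matches was not counted, so these numbers do not show an excess. The sequences below show a pair of R boxes of CIT2, the classic target of the retrograde pathway, and the GATAAG cluster of DAL7, a gene of nitrogen catabolism, with capitals marking the matches on either strand. A match is a run of letters and does not show that a factor binds there.
CIT2 (chrIII:122626-122683, minus strand): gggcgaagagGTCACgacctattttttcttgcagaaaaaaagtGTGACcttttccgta
DAL7 (chrIX:414831-414898, minus strand): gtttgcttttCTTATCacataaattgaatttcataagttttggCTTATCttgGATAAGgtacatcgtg

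CIT2 also lies near a ubiquitin hotspot, a chromosomal site of ubiquitin accumulation to which Euc1 is tied in the study. The study lists the elements of the hotspot on chromosome III, with their positions, as ub-HS1-motif1 and ub-HS1-motif2. They lie upstream of the CIT2 start codon by 1563 and 3099 bases. YCR006C and the tRNA gene SUF2 lie between the start codon and the first of them. Both contain AACAA, the reverse complement of TTGTT, which is given in capitals below (R64, plus strand).
ub-HS1-motif1 (chrIII:123892-123927): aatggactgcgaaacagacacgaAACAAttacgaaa
ub-HS1-motif2 (chrIII:125428-125463): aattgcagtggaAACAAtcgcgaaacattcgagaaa

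The values are TPM, a measure of expression that is normalised to transcript length and to a common total, so levels of different genes can be set side by side, but the number of reads behind a value is unknown. EUC1 ranged from 9.56 to 15.96 TPM among the WT samples, whereas the euc1∆ samples had at most 0.09 TPM. The control samples ranged from 30.8 to 50.6 TPM, and with the GAL promoter EUC1 reached 1942 to 2035 TPM. GAL1, GAL7 and GAL10 had group means of at most 6.81 TPM in glucose and of at least 2264 TPM in galactose, and SUC2, the invertase gene, had 32.1 and 32.5 TPM in WT and euc1∆ and 309 and 253 TPM in the control and pGAL-EUC1. MATa genes summed to 972 to 1633 TPM and MATalpha genes to 21.1 to 48.9 TPM in the 12 samples, as in MATa cells. None of the 75-base windows of the 10 genes, the length of a read, occurs elsewhere in the genome, and none of the genes overlaps another annotated gene. The closest relatives, MLS1 and DAL7, share 73.8% of their aligned bases.

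**Figure D2:**
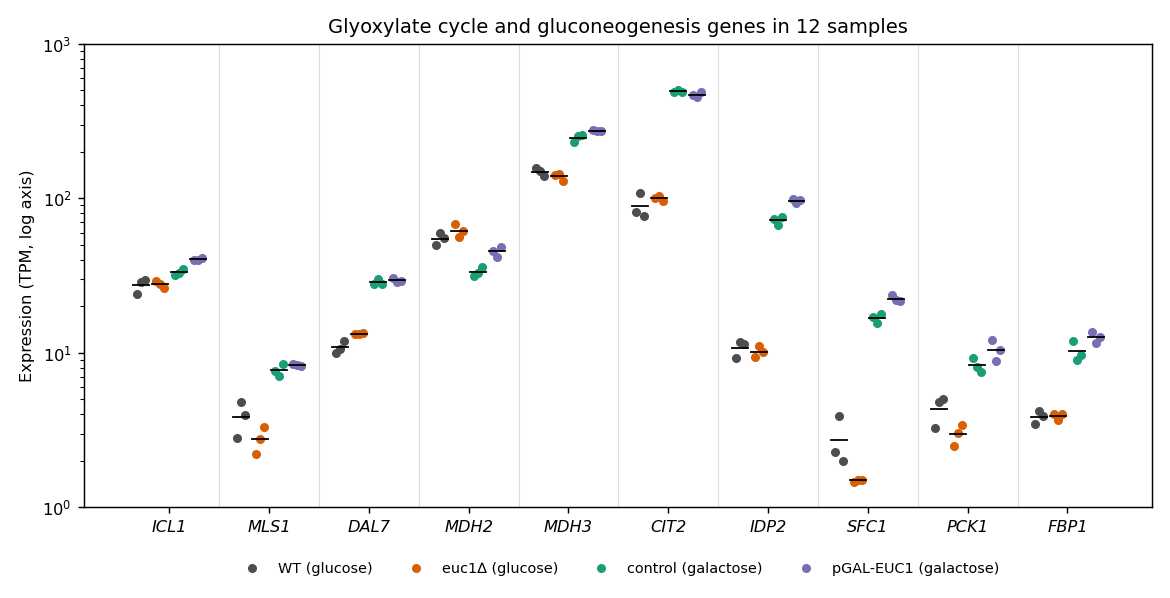
TPM of the 10 genes in each of the 12 samples on a log axis, with 3 points per group and a line at the group mean. CIT2, IDP2 and SFC1 stand several-fold higher in the galactose groups than in the glucose groups, while MDH2 is lower. ICL1 has group means of 27.5 and 27.8 TPM in glucose and of 33.2 and 40.3 TPM in galactose.

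In glucose-grown WT cells the levels of the 10 genes spanned from 2.00 TPM (SFC1) to 156 TPM (MDH3). MDH3, the peroxisomal malate dehydrogenase, came first at 149 ± 7.90 TPM (SD, n = 3), followed by the peroxisomal citrate synthase CIT2 at 89.1 ± 17.3 TPM and the cytosolic malate dehydrogenase MDH2 at 54.9 ± 4.78 TPM. ICL1, the isocitrate lyase, was next at 27.5 ± 2.99 TPM. DAL7 and IDP2 followed with overlapping ranges, at 10.8 ± 1.04 and 10.8 ± 1.36 TPM. PCK1, MLS1, FBP1 and SFC1 were last with means of 2.73 to 4.35 TPM, and each overlapped its neighbour in the order. These 4 genes stood above only 3.91 to 6.96% of the genes with at least 1 TPM. The order in euc1∆ differed from that of WT only among these last 4 genes.

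In the control, CIT2 came first at 495 ± 9.05 TPM, ahead of MDH3 at 248 ± 15.0 TPM and IDP2 at 72.3 ± 4.49 TPM. MDH2 and ICL1 followed with overlapping ranges, and DAL7 and SFC1 came next. FBP1, PCK1 and MLS1 stayed at the bottom with means of 7.74 to 10.2 TPM and overlapping ranges. The order in pGAL-EUC1 was the same. Here FBP1 and PCK1 were the only neighbours whose ranges overlapped. Summed over the 10 genes, the glucose samples reached 340 to 386 TPM (WT) and 350 to 372 TPM (euc1∆). The sums of the galactose samples were 934 to 965 TPM (control) and 979 to 1033 TPM (pGAL-EUC1).

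Nearly all of the set was higher in the control than in WT. At an adjusted p under 0.1 (limma, Benjamini-Hochberg over all 6324 genes tested), 9 of the 10 genes were higher and 1, MDH2, was lower. The background was high as well, since 71.1% of all genes were called in this comparison, 57.8% as higher and 13.3% as lower. The median log2 difference of the 10 genes was 1.03, and that of all genes was 0.36. Rescaling by the median of ratios removes this shift of all genes by design. It also changes the share of higher calls among all called genes from 81.3 to 50.6%. On the rescaled values, 8 of the 10 genes were higher and 1 was lower, where 34.8% of all genes were higher and 34.0% lower. All 10 genes had an unadjusted p under 0.05 and groups that did not overlap, which held for 68.4% and 71.6% of all genes (58.4% without overlap and higher, 13.2% without overlap and lower). Medium, strain background, EUC1 locus, MED11 copy and experiment differ together between these groups and cannot be told apart. In bulk RNA, fewer cells that express a gene and less RNA per cell cannot be told apart either.

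The differences were largest for IDP2, CIT2 and SFC1. IDP2 (chrXII:504591-505829, plus strand, R64) encodes the cytosolic NADP-dependent isocitrate dehydrogenase, a source of NADPH. It had 9.22, 11.7 and 11.4 TPM in WT and 73.5, 67.3 and 76.0 TPM in the control, a log2 difference of 2.64 ± 0.11 (SE) with an adjusted p of 3.00e-07 (limma). All control samples lay far above the WT samples. CIT2 (chrIII:120946-122328, minus strand) makes citrate from oxaloacetate and acetyl-CoA in peroxisomes. It had 82.0, 109 and 76.5 TPM in WT and 492, 505 and 488 TPM in the control, a log2 difference of 2.48 ± 0.12 with an adjusted p of 7.81e-07 (limma). SFC1 (chrX:609773-610741, plus strand), the mitochondrial carrier that exchanges succinate for fumarate and so passes the succinate of the cycle on to mitochondria, had 2.29, 3.89 and 2.00 TPM in WT and 17.0, 15.6 and 17.9 TPM in the control. Its log2 difference was 2.29 ± 0.20 with an adjusted p of 2.19e-05 (limma). The ratios of the group means were 6.70 for IDP2, 5.56 for CIT2 and 6.17 for SFC1.

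The 3 members whose enzymes make or use glyoxylate differed among each other. ICL1 (chrV:285241-286914, minus strand), which splits isocitrate into succinate and glyoxylate, had 24.1, 28.8 and 29.7 TPM in WT and 31.8, 32.7 and 34.9 TPM in the control. The groups did not overlap and the log2 difference was 0.26 ± 0.10 with an adjusted p of 0.0471 (limma), which is below the shift of all genes, and after rescaling ICL1 had a log2 difference of -0.099 with an adjusted p of 0.244. MLS1 (chrXIV:406358-408022, plus strand), the malate synthase that joins glyoxylate with acetyl-CoA, had 2.82, 4.82 and 3.95 TPM in WT and 7.67, 7.06 and 8.50 TPM in the control, a log2 difference of 0.86 ± 0.20 with an adjusted p of 0.00482 (limma). DAL7 (chrIX:413015-414679, minus strand) is the malate synthase that is linked to the degradation of allantoin, a nitrogen source. It had 9.93, 10.6 and 11.97 TPM in WT and 28.1, 30.2 and 27.8 TPM in the control, a log2 difference of 1.33 ± 0.10 with an adjusted p of 1.02e-05 (limma). Both malate synthases were higher in all 3 control samples than in any WT sample, also after rescaling (log2 difference 0.55 for MLS1 and 0.98 for DAL7).

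The malate dehydrogenases moved apart. MDH2 (chrXV:81787-82920, minus strand), the cytosolic enzyme that makes oxaloacetate for gluconeogenesis, had 50.0, 59.5 and 55.1 TPM in WT and 31.5, 32.8 and 36.1 TPM in the control. It fell by 0.70 ± 0.09 on the log2 scale with an adjusted p of 0.000257 (limma), and by 1.06 after rescaling. MDH3 (chrIV:315357-316388, minus strand), which reoxidises NADH in peroxisomes, had 156, 149 and 141 TPM in WT and 231, 254 and 259 TPM in the control. Its log2 difference was 0.73 ± 0.07 with an adjusted p of 4.06e-05 (limma). MDH2 was thus the only member below its glucose level, and every control sample lay under every WT sample.

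The gluconeogenic pair, PCK1 and FBP1, rose from very low levels. PCK1 (chrXI:631152-632801, plus strand), the phosphoenolpyruvate carboxykinase that commits oxaloacetate to gluconeogenesis, had 3.24, 4.77 and 5.05 TPM in WT and 9.26, 8.08 and 7.54 TPM in the control. The log2 difference was 0.81 ± 0.19 with an adjusted p of 0.00518 (limma). FBP1 (chrXII:873746-874792, minus strand), the fructose bisphosphatase of the late steps of gluconeogenesis, had 3.48, 4.18 and 3.92 TPM in WT and 12.01, 8.95 and 9.73 TPM in the control, a log2 difference of 1.20 ± 0.16 with an adjusted p of 0.000268 (limma). The control levels were 1.91 and 2.65 times those of WT, but still only above 9.29 and 11.7% of the genes with at least 1 TPM. Since the scale adds 1 TPM before the logarithm, these log2 differences understate the change of genes at such levels.

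**Figure D3:**
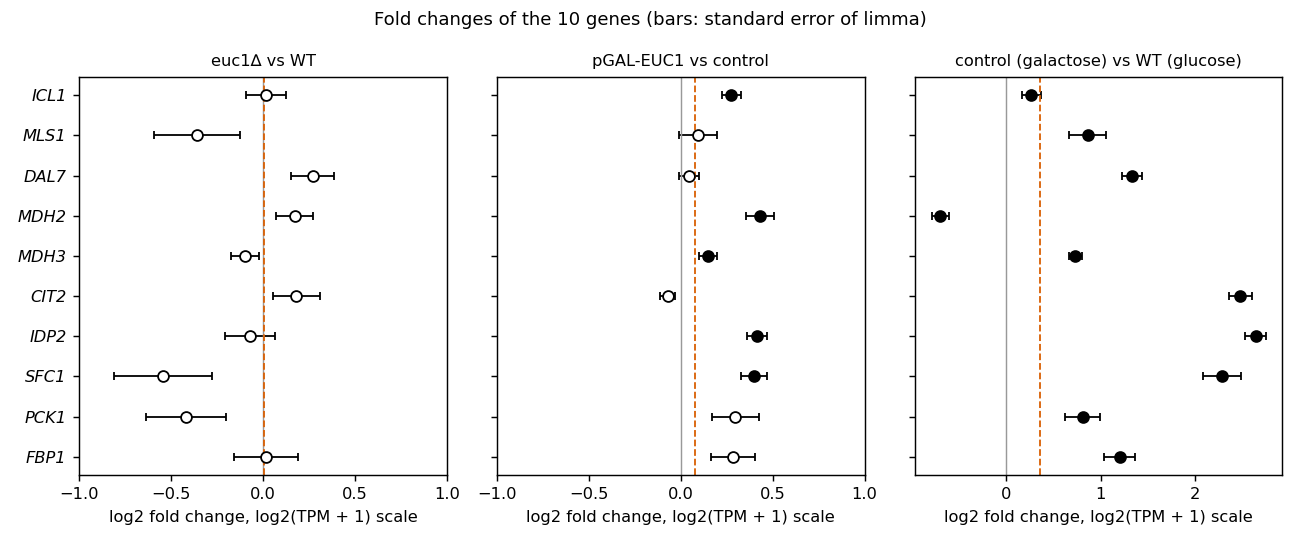
Log2 difference of log2(TPM + 1) with its standard error for the 10 genes in the 3 comparisons, with filled points at an adjusted p under 0.1 and a dashed line at the median of all genes. Filled points appear for 0 genes in euc1∆ against WT, 5 in pGAL-EUC1 against the control and 10 in the control against WT.

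Overexpression of EUC1 was compared with the control in the same medium and strain background. Here 5 of the 10 genes were higher at an adjusted p under 0.1 (limma, 6332 genes tested) and 0 were lower, where 20.4% of all genes were called, 16.0% as higher and 4.42% as lower. The 5 were IDP2, MDH2, SFC1, ICL1 and MDH3, with group means of 1.11 to 1.36 times those of the control. For these 5 genes the groups did not overlap, all in the higher direction, as for 29.7% of all genes (37.0% in either direction, 7.30% lower). An unadjusted p under 0.05 was reached by 6 of the 10, against 30.9% of all genes. The median log2 difference of the 10 genes was 0.28 against 0.08 for all genes. After rescaling by the median of ratios, the share of higher calls among all called genes changed from 78.4 to 35.4%, and 4 of the 10 genes were higher and 1 was lower, where 4.55% of all genes were higher and 8.31% lower. The control samples also serve in the comparison with WT, so the 2 comparisons are not independent.

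IDP2 had 73.5, 67.3 and 76.0 TPM in the control and 98.5, 93.0 and 97.9 TPM in pGAL-EUC1, a log2 difference of 0.41 ± 0.06 (SE) with an adjusted p of 0.00792 (limma). MDH2 had 31.5, 32.8 and 36.1 TPM in the control and 45.9, 41.5 and 48.8 TPM in pGAL-EUC1, a log2 difference of 0.43 ± 0.08 with an adjusted p of 0.0190. Both genes were higher in all pGAL-EUC1 samples than in any control sample. MDH2 in pGAL-EUC1 lay between its control and its WT level. SFC1 had 17.0, 15.6 and 17.9 TPM in the control and 23.6, 22.1 and 21.7 TPM in pGAL-EUC1, a log2 difference of 0.40 ± 0.07 with an adjusted p of 0.0201. ICL1 had 31.8, 32.7 and 34.9 TPM in the control and 40.2, 39.8 and 40.8 TPM in pGAL-EUC1, a log2 difference of 0.27 ± 0.05 with an adjusted p of 0.0217. These 4 genes were called on the rescaled values too, with log2 differences of 0.20 to 0.36.

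MDH3 was near the threshold. It had 231, 254 and 259 TPM in the control and 276, 272 and 274 TPM in pGAL-EUC1, a log2 difference of 0.15 ± 0.05 with an adjusted p of 0.0947 (limma). The groups did not overlap, but the rescaled difference was 0.07 with an adjusted p of 0.479, and the call was also lost when any sample but replicate 3 of the control was left out (adjusted p of 0.141 to 0.251). CIT2 had 492, 505 and 488 TPM in the control and 470, 454 and 489 TPM in pGAL-EUC1. It had the only negative value of the set, -0.07 ± 0.04 on the log2 scale with an adjusted p of 0.244, and the groups overlapped. On the rescaled values CIT2 had a log2 difference of -0.15 with an adjusted p of 0.0598, which was the 1 lower call.

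The remaining 4 genes did not pass the test. PCK1 had 9.26, 8.08 and 7.54 TPM in the control and 12.1, 8.87 and 10.4 TPM in pGAL-EUC1, with a log2 difference of 0.30 ± 0.13 and an adjusted p of 0.168 (limma). FBP1 had 12.01, 8.95 and 9.73 TPM in the control and 13.6, 11.6 and 12.7 TPM in pGAL-EUC1, with a log2 difference of 0.28 ± 0.12 and an adjusted p of 0.152. The groups overlapped for both genes. FBP1 passed with a log2 difference of 0.39 and an adjusted p of 0.0726 when replicate 1 of the control, its highest control sample, was left out. The malate synthases MLS1 and DAL7 had log2 differences of 0.10 ± 0.10 and 0.04 ± 0.05, with adjusted p of 0.546 and 0.623, and overlapping groups. DAL7 had a log2 difference of -0.030 after rescaling.

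Deletion of EUC1 was compared with WT in glucose medium. Of the 10 genes, 0 were called at an adjusted p under 0.1 (limma, 6217 genes tested), where 0.0322% of all genes were called, which is 2 genes, EUC1 itself being 1 of them. The study fitted read counts instead of TPM and reports far more changed genes in euc1∆ at its own threshold. Its count and the one given here are therefore not alike in measure or threshold. At an unadjusted p under 0.05 there was 1 member, DAL7, against 7.54% of all genes. Of the 10 log2 differences 5 were positive and 5 negative, with a median of -0.03, and the median of all genes was 0.01. The groups did not overlap for 2 members, DAL7 and SFC1, where 13.1% of all genes had groups that do not overlap. DAL7 was higher and SFC1 lower in euc1∆, directions that held for 5.71 and 7.37% of all genes. WT samples are shared with the comparison of the control and WT.

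DAL7 had 9.93, 10.6 and 11.97 TPM in WT and 13.2, 13.2 and 13.4 TPM in euc1∆, a log2 difference of 0.27 ± 0.12 (SE) with an unadjusted p of 0.0488 and an adjusted p of 0.656 (limma). All euc1∆ samples were above all WT samples, but the difference did not pass after the adjustment over all genes tested. SFC1 had 2.29, 3.89 and 2.00 TPM in WT and 1.46, 1.51 and 1.51 TPM in euc1∆, a log2 difference of -0.55 ± 0.27 with an adjusted p of 0.699. One WT sample, replicate 2, stood well above the others, and without it the log2 difference was -0.33. PCK1 had 3.24, 4.77 and 5.05 TPM in WT and 2.48, 3.03 and 3.41 TPM in euc1∆, and MLS1 had 2.82, 4.82 and 3.95 TPM in WT and 2.21, 2.77 and 3.30 TPM in euc1∆. Their log2 differences were -0.42 ± 0.22 and -0.36 ± 0.24 with adjusted p of 0.712 and 0.797, and their groups overlapped.

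The other 6 members had overlapping groups as well. CIT2 had 82.0, 109 and 76.5 TPM in WT and 100.4, 104 and 96.0 TPM in euc1∆, a log2 difference of 0.18 ± 0.13 with an adjusted p of 0.822 (limma). Its value was 0.33 without replicate 2 and 0.08 without replicate 3 of WT. ICL1 had 24.1, 28.8 and 29.7 TPM in WT and 29.2, 27.9 and 26.4 TPM in euc1∆, a log2 difference of 0.02 ± 0.11 with an adjusted p of 0.995. The euc1∆ samples of both genes lay within the WT range. For MDH2, MDH3, FBP1 and IDP2 the log2 differences lay between -0.10 and 0.17, with standard errors of 0.08 to 0.17 and overlapping groups. A p that misses the threshold does not show that the levels are alike, and for the 4 genes near 1 to 5 TPM the standard errors were 0.17 to 0.27.

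**Figure D4:**
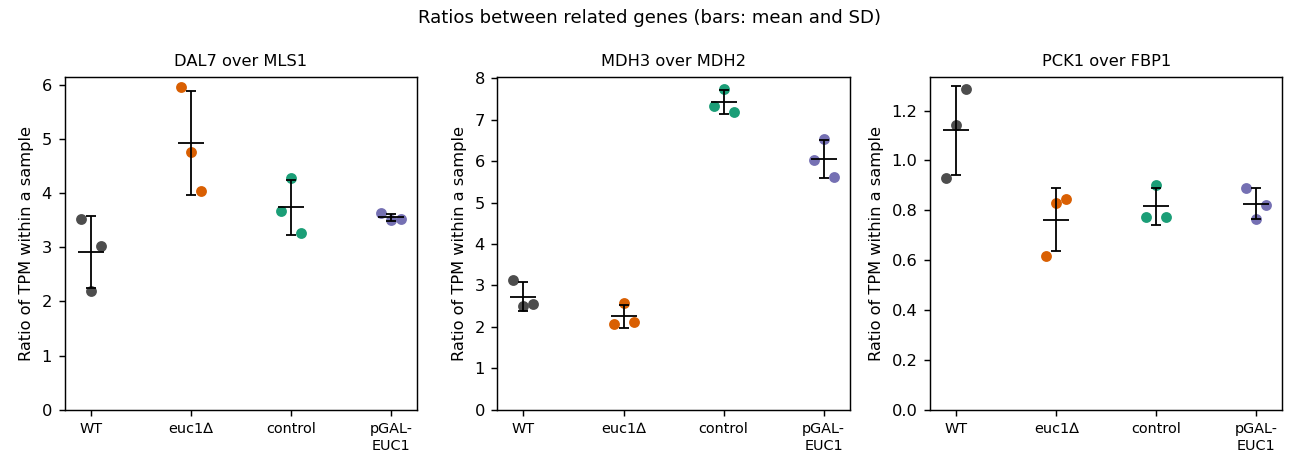
Ratio of TPM of related genes (DAL7 over MLS1, MDH3 over MDH2 and PCK1 over FBP1) in each of the 12 samples, with 3 points per group and bars at the mean and SD. MDH3 over MDH2 lies at 2.07 to 3.13 in the glucose groups and at 5.62 to 7.74 in the galactose groups.

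Ratios within a sample do not depend on the scaling between samples. The ratio of peroxisomal to cytosolic malate dehydrogenase transcripts, MDH3 to MDH2, was 2.73 ± 0.35 (SD, n = 3) in WT, 2.26 ± 0.28 in euc1∆, 7.42 ± 0.28 in the control and 6.06 ± 0.46 in pGAL-EUC1. The galactose groups were above both glucose groups in every sample, and pGAL-EUC1 (5.62 to 6.54) was below the control (7.19 to 7.74). CIT1 encodes the mitochondrial citrate synthase of the TCA cycle. The ratio of CIT2 to CIT1 was 1.25 ± 0.25 in WT, 1.27 ± 0.07 in euc1∆, 0.736 ± 0.024 in the control and 0.635 ± 0.016 in pGAL-EUC1, so that CIT2 was the more abundant transcript by the mean in glucose and the less abundant one in galactose.

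DAL7 exceeded MLS1 in all 12 samples. The ratio was 2.92 ± 0.67 in WT, 4.92 ± 0.96 in euc1∆, 3.74 ± 0.51 in the control and 3.55 ± 0.07 in pGAL-EUC1. WT, with 2.20 to 3.52, and euc1∆, with 4.05 to 5.95, did not overlap. MLS1 was low in these groups, at 2.82 to 4.82 TPM in WT and 2.21 to 3.30 TPM in euc1∆. Its own groups overlapped, and neither gene was called between euc1∆ and WT. PCK1 to FBP1 was 1.12 ± 0.18 in WT, 0.762 ± 0.128 in euc1∆, 0.816 ± 0.075 in the control and 0.827 ± 0.062 in pGAL-EUC1. Its values in WT (0.931 to 1.29) were above those of each of the other groups, with both genes at 5.05 TPM or less in WT. These ratios are a description, and their differences between groups were not tested. How often the ratios of other gene pairs separate the groups was not determined, so a lack of overlap is not read as a result.

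**Figure D5:**
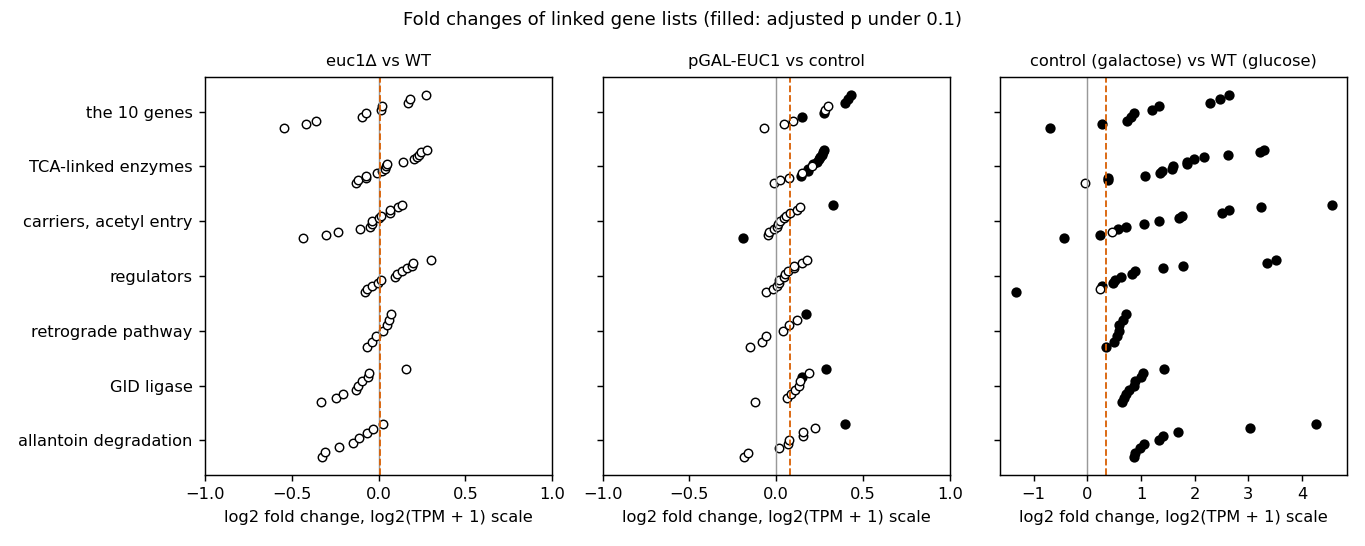
Log2 difference of log2(TPM + 1) for the 10 genes and each gene of 6 lists around the pathway in the 3 comparisons, with filled points at an adjusted p under 0.1 and a dashed line at the median of all genes. In the control against WT nearly all points are filled and to the higher side, while in euc1∆ against WT none is filled.

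Genes around the pathway were followed in 6 lists, which were also chosen with earlier results of these data known. In the control against WT, 57.8% of all genes were called higher and 13.3% lower, and on the rescaled values 34.8 and 34.0%. Of 15 paralogs and TCA-linked enzymes, 14 were higher and 0 lower, with a median log2 difference of 1.60 (0.36 for all genes). On the rescaled values 12 of them were higher and 1 was lower. The alanine-glyoxylate aminotransferase AGX1 rose from 10.6 to 113 TPM and CIT1 from 72.1 to 673 TPM, log2 differences of 3.29 ± 0.10 and 3.21 ± 0.10 (SE). Of 12 regulators, 10 were higher and 1 lower (median 0.73), and on the rescaled values 8 were higher and 1 lower. HAP4, an activator of respiratory genes, rose from 14.2 to 170 TPM, ADR1, an activator of ethanol use, from 3.66 to 44.9 TPM, and CAT8, whose product binds the CSRE, from 2.48 to 10.9 TPM. MIG2, a glucose repressor, dropped from 47.3 to 18.2 TPM and is named as the 1 lower call. MIG1, also a glucose repressor, was called higher, with 62.4 and 75.6 TPM, but not on the rescaled values. REG1 of the same list rose from 34.6 to 64.1 TPM and was higher on both scales. SIP4, the other gene whose product binds the CSRE, rose from 1.53 to 5.75 TPM. The 5 members with a CSRE match had log2 differences from -0.70 to 1.20.

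The other lists moved the same way in this comparison. All 9 genes of the GID ubiquitin ligase were higher (median 0.87), led by the ubiquitin-conjugating enzyme UBC8 with a rise from 25.2 to 69.1 TPM. Of 13 carriers and genes of acetyl entry, 11 were higher and 1 lower (median 1.33). JEN1, the lactate and pyruvate permease, rose from 4.35 to 122 TPM, and DIC1, the dicarboxylate carrier and the 1 lower call, dropped from 146 to 108 TPM. All 9 genes of allantoin degradation were higher (median 1.33), among them the GATA repressor DAL80, with a rise from 0.41 to 25.9 TPM. The 7 retrograde genes were all higher with a median of 0.59, and 4 of them passed on the rescaled values. The lists' counts stand beside 57.8% of all genes called higher and 13.3% called lower. On the rescaled values 9 GID genes and 9 allantoin genes were higher. Of the carriers 10 were higher and 2 lower on those values, where 34.8% of all genes were higher and 34.0% lower.

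In pGAL-EUC1 against the control, 16.0% of all genes were called higher and 4.42% lower, and on the rescaled values 4.55 and 8.31%. Of 15 paralogs and TCA-linked enzymes, 10 were higher and 0 lower (median log2 difference 0.21), and on the rescaled values 3 were higher. The largest were those of ICL2, the mitochondrial methylisocitrate lyase related to ICL1, with 33.7 and 40.8 TPM, and IDH2, a subunit of the NAD-dependent isocitrate dehydrogenase, with 450 and 543 TPM. Both had a log2 difference of 0.27, and on the rescaled values IDH2 was still called (adjusted p of 0.0620, limma) and ICL2 was not (0.101). Of the 12 regulators 0 were called by limma in either direction, and 0 had an unadjusted p under 0.05. The rescaled values gave 1 lower call among them. The GID genes VID24, which encodes the subunit that recognises gluconeogenic enzymes, and GID7 were higher with log2 differences of 0.29 and 0.15, so 2 of 9 were called. Of the carriers 1 was higher (CAT2, carnitine acetyltransferase, 0.33) and 1 lower (ODC2, oxodicarboxylate carrier, -0.19). Among the retrograde genes RTG3 was higher (0.17, 1 of 7) and among the allantoin genes DAL1 (allantoinase, 0.40, 1 of 9). In the GID, carrier, retrograde and allantoin lists the counts lie near or below the 20.4% of all genes called in either direction. They are not read as a result about these lists. On the rescaled values VID24, ODC2 and DAL1 were still called and CAT2, GID7 and RTG3 were not, and 2 of the 7 retrograde genes were lower.

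In euc1∆ against WT, 0 genes of the 6 lists were called by limma, where 0.0322% of all genes were, and 2 of the 64 list genes tested, VID24 and PYC2, had an unadjusted p under 0.05, a smaller share than the 7.54% of all genes. For VID24, with 34.4 TPM in WT and 27.3 TPM in euc1∆, the log2 difference was -0.33 ± 0.11 with an unadjusted p of 0.0152 and an adjusted p of 0.539. PYC2, a pyruvate carboxylase, had 68.3 TPM in WT and 82.5 TPM in euc1∆, with a log2 difference of 0.28 ± 0.11 and an adjusted p of 0.595. Both genes were picked out here after their values were seen. The list medians lay between -0.13 (allantoin degradation, with 8 of 9 genes tested) and 0.10 (regulators), and that of all genes at 0.01.

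The profiles most like those of ICL1 and PCK1 over the 12 samples were looked up among 6325 genes, by the root-mean-square difference of centred log2(TPM + 1) values. Nearest to ICL1 were SMM1, RAD26 and FMP52, with differences of 0.056, 0.057 and 0.058. SMM1 had group means of 53.7 TPM in WT, 53.0 TPM in euc1∆, 63.2 TPM in the control and 82.4 TPM in pGAL-EUC1. Nearest to PCK1 were DPA10, POX1 and YJL163C, with differences of 0.140, 0.141 and 0.148. POX1, the fatty acyl-CoA oxidase of peroxisomal fatty acid breakdown, had 2.22 TPM in WT, 1.70 TPM in euc1∆, 5.07 TPM in the control and 6.54 TPM in pGAL-EUC1. The differences were larger for PCK1 than for ICL1. PCK1 lies at 2.48 to 12.1 TPM and ICL1 at 24.1 to 40.8 TPM, so the sizes are not compared between the 2 genes. These likenesses describe levels over 4 groups only.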

How the data were processed

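PolyA RNA of 12 cultures was sequenced as 75-base single-end reads. The authors aligned the reads to the R64-1-1 transcriptome with STAR 2.6.0a, quantified them with RSEM 1.3.0 and deposited TPM values in 1 table. Whether reads were assigned by strand is not given in the sources used here. TPM keep no depth, so no counting interval can be given. The column names stand 1 cell to the left of the values, and the EUC1 levels fit the resulting order. Of 6825 identifiers, 5903 matched a locus tag of the R64 annotation.

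Groups were taken from the labels. The comparisons were fitted one by one in limma 3.58.1 (R 4.3.3) letting the prior variance follow the mean level. The scale was log2(TPM + 1), and genes below a mean of 1 TPM in the 6 samples of a fit were left out. The two-sided p-values received a Benjamini-Hochberg adjustment across every gene of the fit, and genes were called at an adjusted p under 0.1. Figures were drawn with matplotlib 3.10.9, and tables were handled in Python 3.11.15 with pandas 2.3.3 and numpy 2.4.6. The fit was tested on simulated data. The rescaled values were divided by each sample's median of ratios. The members and lists were chosen with earlier results of these data known. Named are the 10 members, up to 4 called genes of each list with the largest change, the 3 genes nearest in profile to ICL1 and to PCK1, and the check genes. MIG2 and DIC1, the lone lower calls of their lists, were named after their values were seen. So were MIG1 and REG1 in the control against WT, and VID24 and PYC2 in euc1∆ against WT. Alternatives were other pseudocounts, filters and scalings, nuclear open reading frames only, a joint fit, no trend, a replicate block, a correction for gene length and GC content, and fits without each sample.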

Additional observations from a re-analysis of the deposited data

How the results depend on the processing

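The member counts were 0 in euc1∆ against WT under every alternative run. In pGAL-EUC1 against the control the count was 5, and it fell to 2 in the joint fit of all 12 samples and ranged from 4 to 5 when 1 sample was left out. In the control against WT it was 10. It was 6 with a mean of at least 10 TPM, where 4 members were not tested, and 9 to 10 without 1 sample. The gene count in euc1∆ against WT (2) was 1 at a pseudocount of 0.1 or 5, 0 at a mean of at least 10 TPM, 4 after the median of ratios, 101 in the joint fit and 8 with gene length and GC content, and 1 to 3 without 1 sample. It was 1 without replicate 1 or 2 of WT or replicate 3 of euc1∆. In pGAL-EUC1 against the control (1294) it was 814 after the median of ratios and 163 in the joint fit, and 263 to 1081 without 1 sample (605 without replicate 2 of the control, 263 without replicate 1 and 571 without replicate 3 of pGAL-EUC1). The control against WT gave 4048 to 4598 genes without 1 sample.

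Some signs turned. In euc1∆ against WT, ICL1 had -0.041 with gene length and GC content, and -0.072 without replicate 1 of WT and -0.018 without replicate 1 of euc1∆ (-0.072 to 0.072 without 1 sample). FBP1 had -0.041 without replicate 1 of WT, and -0.0015 and -0.0029 without replicates 1 and 3 of euc1∆ (-0.041 to 0.064 without 1 sample). Without 1 sample, other members of this comparison kept their signs but moved in size, SFC1 from -0.69 to -0.33, MLS1 from -0.52 to -0.22 and CIT2 from 0.08 to 0.33, and 0 were called. Under the median of ratios DAL7 had -0.030 in pGAL-EUC1 against the control and ICL1 -0.099 in the control against WT. ICL1 also lost its call there without replicate 2 or 3 of the control (adjusted p of 0.107 and 0.149). In the joint fit, ICL1, MDH3 and SFC1 lost their calls in pGAL-EUC1 against the control (adjusted p of 0.139, 0.275 and 0.258). MDH3 lost it also without a trend (0.146). The causes were not tested, and the number of reads behind a TPM value limits the members under 5 TPM by an unknown amount.

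Samples of different groups share replicate numbers, but same-numbered samples correlated by -0.11 to 0.19 in their deviations from the group means, so a number is not taken as a pairing. With a replicate block 1 gene was called in euc1∆ against WT, 1221 in pGAL-EUC1 against the control and 4344 in the control against WT, and 0, 4 and 10 members. MDH3 was the member that lost its call in pGAL-EUC1 against the control (adjusted p of 0.109).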
